A study of Mus musculus with 4 samples.

Results

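The solute carrier (SLC) genes form the largest group of membrane transporters in mammals, and here they were described in cultured CD8+ T cells labelled Irf8 knockout against cells labelled WT. Members were the symbols of the form Slc, family number, letter a and member number whose mean over the 4 libraries was at least 100 normalized counts, without Slc2a1, Slc2a3, Slc16a1, Slc16a3, Slc15a4 and Slc7a5. Of 49490 genes in the table, 340 symbols had this form, 6 were left out by name, 74 had 0 reads in every library, 104 had reads but a lower mean, and 156 were members. The form also takes in Slc9a3r1, a scaffold protein and not a transporter, and it leaves out families whose symbols carry another letter, such as the nucleotide sugar carriers Slc35b to Slc35f. The members were chosen by level, so their levels are a description. All 156 passed the filter on low values. For 7 of them the mean was under 100 in 1 group, 2 of these in the knockout-labelled and 5 in the WT-labelled group, and these 7 reached the level only through the group in which they were high.

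Solute carriers move small molecules across the plasma membrane and the membranes of mitochondria, lysosomes, the endoplasmic reticulum and the Golgi apparatus. Some run with an ion gradient, some exchange one solute for another, and some let a solute follow its own gradient. Activated T cells are known to raise the uptake of glucose, amino acids and iron when they begin to divide. Family number follows sequence and not substrate, so relatives of the same family can sit in different membranes.

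The tested libraries were 2 labelled Irf8 knockout, given as Irf8-/- in the design text, and they were set against 2 labelled WT, given there as Irf8fl/fl. Mouse spleens and lymph nodes were the source of the CD8+ T cells, which were activated in vitro, and polyadenylated RNA was sequenced for all 4 libraries. No source used here gives the age or sex of the mice, the stimulus, its duration or the Cre line. Nothing says that the libraries of a pair stem from different mice or cultures, so p-values measure the spread between libraries alone, and that spread may be technical.

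Irf8 itself went against the labels. It had 89508 and 90222 normalized counts in the knockout-labelled libraries, against 6364 and 6081 in the WT-labelled libraries (log2 fold change 3.85, SE 0.04, limma adjusted p = 4.32e-08). The groups are therefore called by their labels, and a gene that rose or fell did so in the knockout-labelled relative to the WT-labelled libraries. An exchange of labels, which was not tested, would turn every direction given here. Reads per library lay between 58899365 and 59724952. Genes of the CD8 chains were read in all libraries. Cd8a had 31570 and 32517 normalized counts in the knockout-labelled libraries, against 39950 and 40359 in the WT-labelled libraries. Cd8b1 had 39379 and 39497, against 60156 and 59604 in the WT-labelled libraries. Their log2 fold changes were -0.33 and -0.60. Of 8 T cell markers, 7 fell and 0 rose (median log2 fold change -0.65), and their summed level was 362132 and 365706 normalized counts in the knockout-labelled libraries, against 514464 and 511083 in the WT-labelled libraries. All 8 markers of plasmacytoid dendritic cells rose (summed level 225237 and 225413, against 8997 and 9228), as did 6 of 7 markers of conventional dendritic cells (102311 and 102758, against 18180 and 18067). In the knockout-labelled libraries most of the latter sum was H2-Aa (77125 and 77689, against 4588 and 4817 in the WT-labelled libraries). Of the 7, Itgax rose by only 0.13 on the log2 scale, and Xcr1, at 0.02, was not called. All 4 neutrophil markers tested rose as well (summed level of the 5 listed 1957 and 2079, against 77.3 and 126), with Elane and Mpo at 0 reads in the WT-labelled libraries. Of 7 macrophage markers 5 fell and 0 rose, of 3 NK cell markers 2 fell and 0 rose, of 5 B cell markers tested Cd79b alone rose, and neither of the 2 erythroid markers tested was called. These cell markers moved with every result below, and their part in the results was not tested. In bulk RNA, fewer cells of a type and less RNA per cell cannot be told apart.

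Per length of transcript, the mitochondrial carriers and the amino acid transporters led. Levels between genes are given as RPKM, the reads per kilobase of exon scaled to 1000000 reads in all, a scale that follows total reads and so lies slightly apart from that of the authors' normalized counts. Slc25a5, an ADP/ATP carrier of the inner mitochondrial membrane, had 417 ± 3.21 RPKM in the knockout-labelled libraries and 437 ± 58.1 RPKM in the WT-labelled libraries (SD, n = 2 each). Slc25a3, the mitochondrial phosphate carrier, had 156 ± 4.52 RPKM in the knockout-labelled and 152 ± 5.3 RPKM in the WT-labelled libraries. The next 3 lay close together. Among them was Slc3a2, the heavy chain of several amino acid transporters, with 109 ± 2.37 RPKM in the knockout-labelled and 95.4 ± 2.78 RPKM in the WT-labelled libraries. Slc9a3r1, at 106 ± 3.96 RPKM in the knockout-labelled and 123 ± 1.57 RPKM in the WT-labelled libraries, and Slc25a4, the other abundant ADP/ATP carrier, at 102 ± 2.94 RPKM in the knockout-labelled and 103 ± 5.2 RPKM in the WT-labelled libraries, were the others. Slc25a4 and Slc9a3r1 differed from each other by less than the spread between libraries in the knockout-labelled group. Reads of Slc25a5 and Slc25a4 can be shared with processed copies of these genes.

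**Figure D1:**
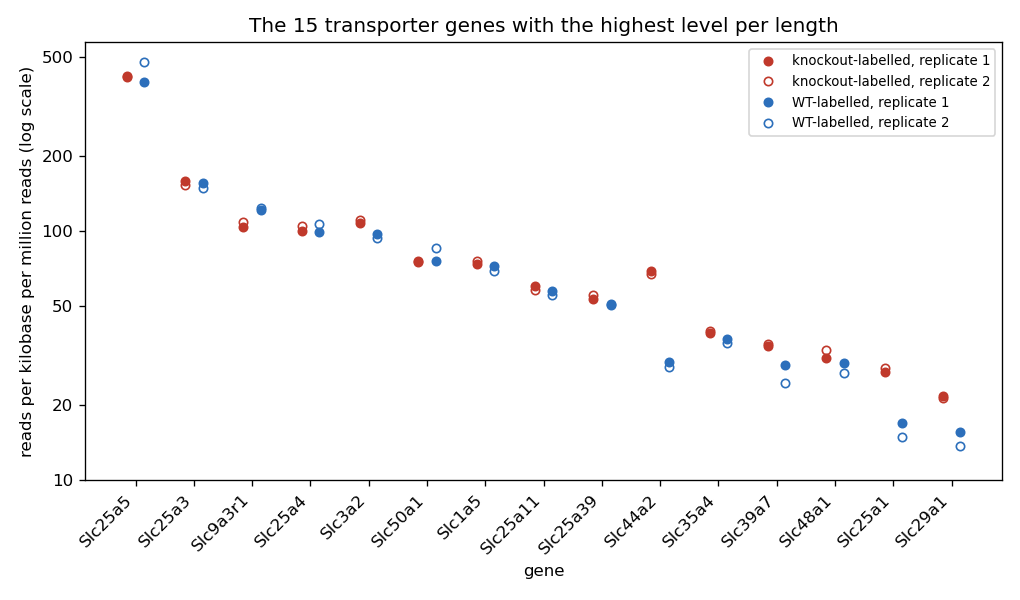
Level per length of the 15 most abundant members, in RPKM on a log axis, with a point for each of the 4 libraries. The points of the groups lie close together for most genes, while Slc44a2 sits at a mean of 68.3 in the knockout-labelled and 29.1 in the WT-labelled libraries.

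Of the 156 members, 60 were higher and 19 lower in the knockout-labelled libraries (limma on log2 of the normalized count plus 1, adjusted p under 0.05 over all 18378 genes tested). That is 38.5% and 12.2% of the members, while over all genes tested 19.9% were higher and 13.4% lower. In either direction 79 members were called, or 50.6%, against 33.4% of all genes tested. Among all genes tested with a mean of at least 100, the same level as the members, 22.7% were higher and 18.9% lower. The increases were the larger changes: 23 members rose by more than 2-fold, 9 of them by more than 4-fold, and 0 fell by more than 2-fold. Among the 9 are Slc9a2, Slc22a23 and Slc27a3, whose WT-labelled means were under 100. They became members only through the knockout-labelled group, so the rule itself adds to the large increases. At more than 2-fold the shares over all genes tested were 10.5% higher and 0.876% lower, and over those with a mean of at least 100 they were 9.05% and 0.575%. The median log2 fold change was 0.17 for the members, 0.02 for all genes tested and -0.004 for those with a mean of at least 100. Between the groups there was no overlap in 125 members, or 80.1%, against 68.8% of all genes tested and 74.5% of those with a mean of at least 100, and 89 of the 125 were higher. By adjusted p, the authors' deposited table has 56 members higher and 18 lower in the knockout-labelled libraries, and these 74 had the same call here, beside 15.5% and 10.1% of the genes with an adjusted p in the authors' deposited table.

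Scaling and library number set limits on these counts. Centring each library on its median shifted every change by -0.30 on the log2 scale, and the members then split into 35 higher and 58 lower, with a median of -0.13, against -0.28 for all genes. Of the 60, 25 were then no longer called higher, among them Slc7a7, Slc25a28, Slc31a1, Slc29a1, Slc45a4, Slc19a2, Slc23a2, Slc38a1, Slc52a2, Slc39a7, Slc9a9, Slc7a6 and Slc3a2 of those described below. All 19 that fell were still called lower. Without the first knockout-labelled library 27 members were higher and 5 lower, and the counts were the same without the second.

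**Figure D2:**
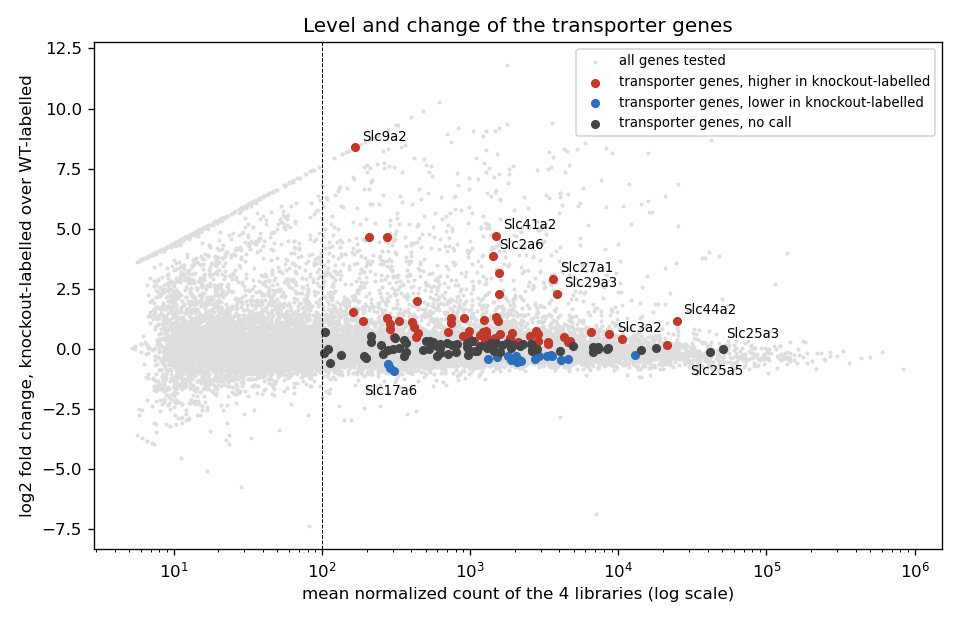
Mean normalized count of the 4 libraries (log axis) against the log2 fold change of knockout-labelled over WT-labelled libraries, for all genes tested in grey and for the members in colour by call; the dashed line is the minimum mean of 100. Members that rose reach 8.39 on the log2 scale (Slc9a2), and those that fell stay above -1 (Slc17a6, -0.94).

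The 10 largest increases covered several substrates. They were picked by size among the members called higher, so the lack of overlap between their groups follows from the choice. Slc9a2, a sodium/proton exchanger known from epithelia (chromosome 1, 40680574 to 40769273, plus strand, mm10), had 316 and 351 normalized counts in the knockout-labelled libraries and 0 reads in both WT-labelled libraries. With a floor of 3 reads per library it was at least 109-fold higher, a bound that covers counting error only. Slc41a2, a magnesium transporter (chromosome 10, 83230848 to 83337882, minus strand), had 2891 and 2889, against 133 and 90.9 in the WT-labelled libraries, and rose 25.8-fold (log2 fold change 4.70, SE 0.18, limma adjusted p = 1.06e-05). Slc22a23, a member of the organic ion transporter family with no settled substrate, had 364 and 433, against 15.3 and 14.3 in the WT-labelled libraries. It rose 26.9-fold, and Slc27a3, of the fatty acid transport protein family, rose 26.2-fold, with 517 and 549 against 21.4 and 19.4 in the WT-labelled libraries. The folds of both rest on the few reads of the WT-labelled libraries. Like Slc9a2, both had a WT-labelled mean under 100 and were members only through the knockout-labelled group.

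Slc2a6, a hexose transporter of lysosomes (chromosome 2, 27021363 to 27027998, minus strand), had 2614 and 2719 normalized counts in the knockout-labelled libraries, against 169 and 198 in the WT-labelled libraries. It rose 14.5-fold (log2 fold change 3.86, SE 0.11, limma adjusted p = 3.09e-06). Slc44a1, a choline transporter, had 2915 and 2723, against 316 and 309 in the WT-labelled libraries, and rose 9.01-fold. Slc27a1, a fatty acid transport protein (chromosome 8, 71568882 to 71587302, plus strand), had 6443 and 6433, against 883 and 840 in the WT-labelled libraries. It rose 7.47-fold and had the smallest adjusted p of the members (log2 fold change 2.90, SE 0.06, limma adjusted p = 7.91e-07). Slc29a3, the nucleoside transporter of late endosomes and lysosomes, had 6389 and 6455, against 1226 and 1398 in the WT-labelled libraries, and rose 4.89-fold. Slc15a3, which carries histidine and small peptides out of endolysosomes, had 2694 and 2525, against 557 and 520 in the WT-labelled libraries, a 4.85-fold rise. Slc9a7, a sodium or potassium/proton exchanger of the trans-Golgi network and endosomes, had 700 and 711, against 167 and 186 in the WT-labelled libraries, and rose 4.0-fold. All 10 kept their call without any of the 4 libraries in turn. Exons of Slc15a3 overlap those of Tmem132a on the other strand over 28.1% of their length, and reads of the pair cannot be told apart where strand was not used.

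**Figure D3:**
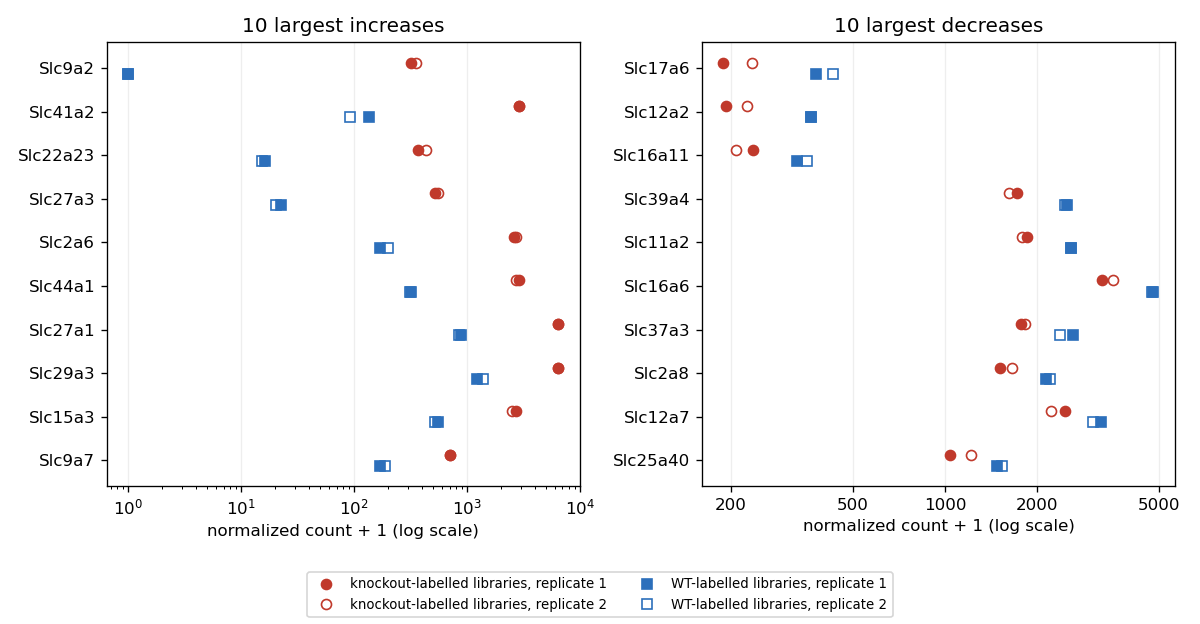
Normalized counts plus 1 (log axis) in each library for the 10 members with the largest increases (left) and the 10 with the largest decreases (right), with filled symbols for replicate 1 and open symbols for replicate 2. On the left the groups are about 4.0-fold apart or more, and on the right they are less than 2-fold apart. Both sets were picked by size among called members, so groups that lie apart follow from the choice.

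The decreases were small beside these. Slc17a6, a glutamate transporter of synaptic vesicles, had 188 and 234 normalized counts in the knockout-labelled libraries, against 379 and 431 in the WT-labelled libraries, and fell by 0.94 on the log2 scale (SE 0.17, limma adjusted p = 0.00667). Slc12a2, the sodium-potassium-chloride cotransporter, had 192 and 224, against 364 and 365 in the WT-labelled libraries, and fell by 0.81. The third by size was Slc16a11, of the monocarboxylate transporter family, which fell by 0.62. Slc39a4, a zinc importer, had 1717 and 1618, against 2504 and 2462 in the WT-labelled libraries, and fell by 0.57, while Slc11a2, the proton-coupled iron transporter DMT1, had 1848 and 1782, against 2574 and 2579, and fell by 0.51. Slc16a6 fell by 0.49, Slc37a3 by 0.48, Slc2a8 by 0.46, and Slc12a7 and Slc25a40 by 0.43 each. Of the 19 members that fell, 2 lay below the T cell marker median of -0.65 and 17 above it. Only Slc39a4, Slc11a2 and Slc16a6 of these 10 kept their call without each of the 4 libraries in turn, and Slc20a1 did so among the other 9. Exons of Slc16a6 share 21.5% of their length with Amz2 on the other strand.

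Substrate classes were assigned to whole families by family number, with Slc9a3r1 alone set apart as a scaffold. A class can therefore hold members that carry something else. The counts by class that follow are read beside the 19.9% higher and 13.4% lower of all genes tested. Those after centring are read beside 2389 higher and 7210 lower among all genes. The families assigned to vitamins, choline and fatty acids had the highest median. Slc46 is counted here as a family, and members of Slc5 are counted with sugars and sodium-coupled solutes, whatever they carry. Of the 11 members of this class, 8 rose and 1 fell, with a median log2 fold change of 0.47. After centring 5 were higher and 2 lower, with a median of 0.17. Slc44a2, a choline transporter-like protein, had 34685 and 33912 in the knockout-labelled libraries, against 15471 and 15030 in the WT-labelled libraries. It rose 2.25-fold (log2 fold change 1.17, SE 0.03, limma adjusted p = 2.88e-06). Slc46a3, a lysosomal carrier, rose 2.24-fold, and the transporters of thiamine (Slc19a2), ascorbate (Slc23a2) and riboflavin (Slc52a2) had log2 fold changes of 0.47, 0.44 and 0.40 and rose too. The member that fell was Slc27a4, by 0.33. The summed level of the class was 143 and 141 RPKM in the knockout-labelled libraries, against 65.8 and 64.1 RPKM in the WT-labelled libraries.

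Amino acid and osmolyte carriers rose in 11 of 20 members and fell in Slc7a1 alone (median log2 fold change 0.31). After centring 6 were higher and 5 lower, with a median of 0.01. Slc6a6, the taurine transporter, had 10443 and 10582 normalized counts in the knockout-labelled libraries, against 6740 and 6945 in the WT-labelled libraries, and rose 1.54-fold (limma adjusted p = 7.89e-05). Slc38a1, a sodium-coupled glutamine transporter, had 11982 and 12153, against 9258 and 8825 in the WT-labelled libraries, and rose by 0.42 on the log2 scale. Slc7a11, the cystine/glutamate exchanger, rose by 1.15 with 266 and 255, against 127 and 107 in the WT-labelled libraries, and Slc38a9, the lysosomal arginine sensor, rose by 0.68. Slc7a7 rose by 1.09, but its WT-labelled libraries stood apart at 182 and 353. Slc7a1, the main importer of arginine and lysine, had 3131 and 3225, against 3719 and 3913 in the WT-labelled libraries, and fell by 0.26. Slc1a5, the neutral amino acid exchanger ASCT2, had 17827 and 18386, against 18193 and 17532 in the WT-labelled libraries, and its groups overlapped (log2 fold change 0.02, 95% interval -0.07 to 0.11; after centring -0.28 and called lower).

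Slc3a2 and its light chain partners moved by unequal amounts. Slc3a2 had 22020 and 22707 normalized counts in the knockout-labelled libraries, against 20594 and 20108 in the WT-labelled libraries, a log2 fold change of 0.14 (limma adjusted p = 0.0247) that became -0.16 after centring. The light chains among the members, Slc7a6, Slc7a7 and Slc7a11, rose by 0.17, 1.09 and 1.15, with Slc7a6 at -0.13 after centring. Slc7a5, the leucine-transporting light chain that was left out by name, had 13210 and 13819, against 4453 and 4711 in the WT-labelled libraries (log2 fold change 1.56).

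Metal carriers rose in 10 of 25 members and fell in 2 (median log2 fold change 0.24). After centring the balance turned, with 5 higher and 6 lower and a median of -0.06. Beside Slc41a2, the zinc and iron importer Slc39a14 had 1298 and 1286 normalized counts in the knockout-labelled libraries, against 512 and 546 in the WT-labelled libraries, and rose 2.44-fold. Slc39a11, of the same family, rose 2.27-fold, Slc30a4, which loads zinc into endosomes, 2.44-fold, and Slc30a5, which loads zinc into the early secretory pathway, 1.52-fold. The copper importer Slc31a1 rose by 0.59, with WT-labelled libraries at 1183 and 858. The 2 that fell were Slc39a4 and Slc11a2. Exons of Slc39a7, which rose by 0.33 and by 0.03 after centring, lie for 80.7% of their length within Gm20427 on the same strand.

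Among carriers of protons, bicarbonate, calcium and chloride, 9 of 20 rose and 3 fell (median log2 fold change 0.25). After centring the balance turned here too, with 5 higher and 8 lower and a median of -0.05. Slc4a8, a sodium-driven chloride/bicarbonate exchanger, rose 2.1-fold and Slc12a9, of the cation-chloride cotransporter family, 2.51-fold, while Slc4a7, a sodium/bicarbonate cotransporter, fell by 0.30. In the class of organic ions and carboxylates 5 of 18 members rose and 4 fell (median 0.19). After centring 5 were higher and 6 lower (median -0.11). This class also holds the Slc15 family of Slc15a3, in which 2 of 2 members rose, and the 1 member of Slc14, which fell. Of 5 nucleoside carriers, Slc29a3 and Slc29a1 rose, by 2.29 and 0.50, and the concentrative transporter Slc28a2 fell by 0.32 (class median -0.01; 1 higher and 2 lower after centring). Of 2 phosphate carriers, Slc20a1 fell by 0.41, with 4007 and 3834 against 5262 and 5186 in the WT-labelled libraries, and Slc20a2 had a log2 fold change of 0.15.

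Mitochondrial carriers were the largest class. Of 37, 10 rose, 2 fell and 25 were not called. Taken in either direction, that is near the 33.4% called over all genes tested. It lies below the 41.6% called among genes with a mean of at least 100, of which 22.7% were higher and 18.9% lower. The median log2 fold change was 0.04 and became -0.26 after centring, when 5 were higher and 19 lower. The abundant ones did not pass on the authors' scale, but after centring Slc25a3, Slc25a4, Slc25a5 and Slc25a39 were called lower, at -0.33, -0.37, -0.43 and -0.26. On the authors' scale Slc25a3 had 51031 and 48982 normalized counts in the knockout-labelled libraries, against 51957 and 50327 in the WT-labelled libraries (log2 fold change -0.03, 95% interval -0.11 to 0.05). Slc25a4 had a log2 fold change of -0.07 (-0.20 to 0.05), or -0.13 and called lower without WT-labelled replicate 1 (limma adjusted p = 0.0351), and Slc25a39, a carrier needed for mitochondrial glutathione import, of 0.04 (-0.06 to 0.13). Slc25a5 had 39489 and 39926, against 39062 and 47984, so that WT-labelled replicate 2 alone lay above the others (log2 fold change -0.12, 95% interval -0.38 to 0.13). Without WT-labelled replicate 1 it was called lower, at -0.27 (limma adjusted p = 0.000109), and without replicate 2 it was at 0.02. Those that rose included Slc25a12, the aspartate/glutamate carrier, with 7981 and 8024, against 5053 and 4949 in the WT-labelled libraries (log2 fold change 0.68, SE 0.04, limma adjusted p = 6.49e-05). Slc25a1, which exports citrate, had 3419 and 3527, against 2210 and 1970 in the WT-labelled libraries, and rose by 0.73. Slc25a23, an ATP-magnesium/phosphate carrier, rose by 1.26, Slc25a29, a carrier of basic amino acids, by 0.90 and Slc25a28, an iron importer of mitochondria, by 0.62. Slc25a24, an ATP-magnesium/phosphate carrier as well, fell by 0.31, and Slc25a40 by 0.43.

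The remaining classes were small. Of 10 carriers of nucleotide sugars, sugar phosphates and acetyl-CoA, 3 rose and 2 fell (median log2 fold change 0.11), against 2 higher and 5 lower after centring (median -0.19). The class was led by Slc33a1, which brings acetyl-CoA into the endoplasmic reticulum and rose by 0.72. Exons of Slc33a1 share 32% of their length with Gm26850 on the other strand. Of 7 carriers of sugars and sodium-coupled solutes, Slc2a6 and Slc45a4 rose and Slc2a8 fell (median -0.06; 1 higher and 3 lower after centring). Slc9a3r1 had 11523 and 12149 normalized counts in the knockout-labelled libraries, against 14028 and 14533 in the WT-labelled libraries, and fell by 0.27 on the log2 scale (SE 0.04, limma adjusted p = 0.00388).

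**Figure D4:**
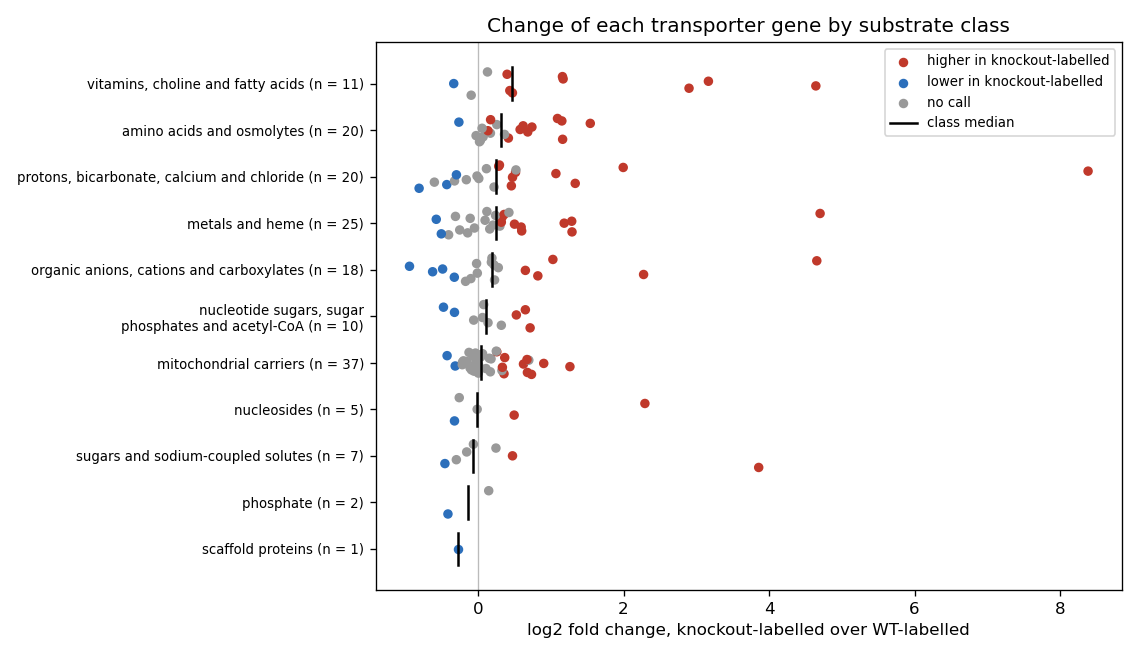
Log2 fold change of knockout-labelled over WT-labelled libraries for each member, grouped by substrate class, with a black bar at the class median and colour by call. Classes were assigned to whole families by family number. The medians run from 0.47 for vitamins, choline and fatty acids down to 0.04 for the 37 mitochondrial carriers and below 0 in the 4 classes under them, and centring lowers every point by 0.30.

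In 10 of the 42 families among the members, at least 1 member rose and at least 1 fell. In Slc9 the gene that fell was the scaffold Slc9a3r1, and no exchanger of that family fell. Slc27 held both Slc27a3 and Slc27a1, which rose by 4.64 and 2.90, and Slc27a4, which fell by 0.33. In Slc2, Slc2a6 rose by 3.86 and Slc2a8, a hexose transporter of endosomes and lysosomes, fell by 0.46, with 1510 and 1651 normalized counts in the knockout-labelled libraries, against 2131 and 2202 in the WT-labelled libraries. In Slc12, Slc12a9 rose by 1.34, and Slc12a7 and Slc12a2 fell by 0.43 and 0.81. In Slc37, Slc37a2 rose by 0.65, with 2135 and 2541, against 1435 and 1535 in the WT-labelled libraries, while Slc37a1 and Slc37a3 fell by 0.32 and 0.48. Slc37a4, the glucose 6-phosphate carrier of the endoplasmic reticulum, had a log2 fold change of 0.08 and was not called. Slc16a13 and Slc16a11 are neighbours on chromosome 11 whose 3′ ends face each other across 372 bases. Slc16a13 had 548 and 536, against 337 and 353 in the WT-labelled libraries, and rose by 0.65, whereas Slc16a11 had 235 and 206, against 328 and 353, and fell by 0.62.

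**Figure D5:**
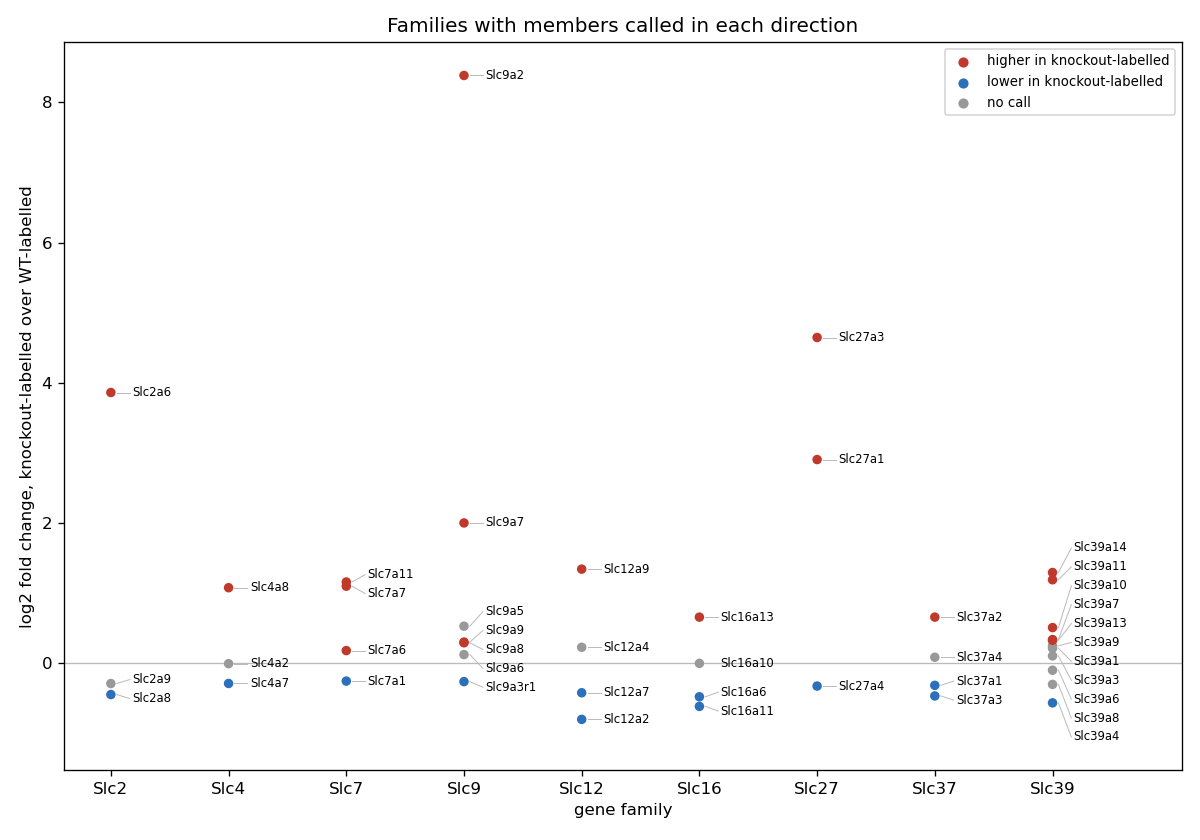
Log2 fold change of knockout-labelled over WT-labelled libraries for members of the 9 smaller families that hold a member called in each direction; the mitochondrial carriers of Slc25 are left out for space, and 2 members are not shown. Slc27a3 at 4.64 and Slc27a4 at -0.33 mark the range within 1 family of 3.

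Promoter windows of the members are shown because members of 1 family moved in opposite directions, and because IRF8 is known to bind DNA as a partner of ETS or AP-1 factors. RefSeq windows on GRCm38.p6, running from 250 bases before to 50 after a start, were held for 120 of the 156 members (165 windows). They were searched on both strands for GAAA, any 2 bases and GAAA again (the interferon-stimulated response element, ISRE), for GGAA, any 2 bases and GAAA (the ETS-IRF composite element, EICE), TGANTCA (AP-1) and TCACGTGA (the lysosomal CLEAR motif). The ISRE and EICE forms cannot match the same bases in full. The windows of Slc37a1, Slc37a2 and Slc37a3 hold all 4 motifs between them, Slc4a8 has the EICE form, and Slc2a6 stands for the large increases. Most of the windows shown were picked for their motifs, while 19 of the 120 members with a window held any of the 4. Each sequence is written 5′ to 3′ on the strand of its gene, with matches in capitals.
Slc37a2: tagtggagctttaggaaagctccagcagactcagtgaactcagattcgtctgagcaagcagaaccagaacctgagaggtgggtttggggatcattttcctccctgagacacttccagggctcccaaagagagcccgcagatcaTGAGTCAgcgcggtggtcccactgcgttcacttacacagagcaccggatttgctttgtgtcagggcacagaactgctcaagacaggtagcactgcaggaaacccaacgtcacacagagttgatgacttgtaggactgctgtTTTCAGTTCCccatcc
Slc37a1: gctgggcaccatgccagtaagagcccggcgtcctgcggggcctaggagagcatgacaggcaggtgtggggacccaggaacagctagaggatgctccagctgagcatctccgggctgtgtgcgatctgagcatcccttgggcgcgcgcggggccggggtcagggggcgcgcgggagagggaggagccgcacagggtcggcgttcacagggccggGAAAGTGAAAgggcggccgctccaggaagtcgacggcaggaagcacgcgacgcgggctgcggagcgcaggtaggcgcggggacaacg
Slc37a3: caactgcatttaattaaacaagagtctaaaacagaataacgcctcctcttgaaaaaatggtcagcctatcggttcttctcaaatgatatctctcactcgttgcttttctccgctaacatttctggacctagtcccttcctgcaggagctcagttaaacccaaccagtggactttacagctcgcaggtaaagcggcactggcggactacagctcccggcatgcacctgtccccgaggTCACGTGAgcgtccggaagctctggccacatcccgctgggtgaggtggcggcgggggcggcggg
Slc4a8: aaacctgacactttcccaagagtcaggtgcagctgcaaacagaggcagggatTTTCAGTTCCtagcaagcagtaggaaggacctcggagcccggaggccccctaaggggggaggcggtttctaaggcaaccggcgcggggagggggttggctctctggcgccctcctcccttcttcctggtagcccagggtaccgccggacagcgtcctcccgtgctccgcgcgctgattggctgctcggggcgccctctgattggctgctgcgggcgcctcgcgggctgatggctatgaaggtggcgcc
Slc2a6: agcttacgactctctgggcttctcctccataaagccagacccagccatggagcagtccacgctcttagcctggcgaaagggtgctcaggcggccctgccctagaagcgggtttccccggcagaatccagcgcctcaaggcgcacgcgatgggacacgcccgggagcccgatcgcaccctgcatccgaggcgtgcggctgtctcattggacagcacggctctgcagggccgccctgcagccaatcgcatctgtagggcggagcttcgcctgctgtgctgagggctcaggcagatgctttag

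The window of Slc37a2, which rose, is chr9:37255689-37255988 on the minus strand and holds the AP-1 motif from position -107 and, read on the opposite strand, the EICE form from position 35 after the start. That of Slc37a1, which fell, is chr17:31295974-31296273 on the plus strand and holds the ISRE form from position -37. Slc37a3, which fell, has its first window at chr6:39377658-39377957 on the minus strand with the CLEAR motif from position -14, and its second window holds none of the 4 motifs. Slc4a8, which rose, has chr15:100761497-100761796 on the plus strand with the EICE form on the opposite strand from position -198. In the window of Slc2a6, chr2:27027949-27028248 on the minus strand, none of the 4 motifs was found. The same held for all 11 windows of the 8 genes with a window among the 10 largest increases. Among windows of members that rose, 1.33% held the ISRE form, 5.33% EICE, 2.67% AP-1 and 1.33% CLEAR (n = 75). Among windows of members that fell, 5.26%, or 1 window, held each of them (n = 19). Over all 32851 windows of the table the shares were 3.44%, 2.72%, 7.81% and 0.974% in the same order of motifs. A match is a run of letters and not a site of binding.

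Carriers of endosomes and lysosomes were looked at as a list of 20 members, put together after the values were known. Of these, 9 rose and 2 fell, which is read beside the 51 that rose and 17 that fell among the other 136, and the 19.9% higher and 13.4% lower of all genes tested. The 9 were Slc2a6, Slc29a3, Slc15a3, Slc9a7, Slc30a4, Slc36a4, Slc46a3, Slc38a9 and Slc9a9, and 8 of them were still called higher after centring. After centring the list split into 8 higher and 4 lower, and the other 136 into 27 higher and 54 lower. Slc2a8 and Slc11a2 fell. Slc17a5, the lysosomal sialic acid exporter, had a log2 fold change of 0.28, Slc48a1, the lysosomal heme transporter, of 0.12, and Slc11a1, the metal transporter of macrophage phagosomes, of -0.40, none of which was called. The summed level of the 20 was 153 and 159 RPKM in the knockout-labelled libraries, against 102 and 98.6 RPKM in the WT-labelled libraries. Slc15a4, another endolysosomal histidine and peptide carrier that was left out by name, had 4600 normalized counts in each knockout-labelled library, against 1336 and 1253 in the WT-labelled libraries.

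Genes that work beside the members were taken from a list of 55 chaperones, transporters with other symbols and regulators, of which 49 were tested. Of these, 18 rose, 7 fell and 24 were not called, beside the 19.9% and 13.4% of all genes tested, with a median log2 fold change of 0.09. Slco4a1, an organic anion transporter, had 10730 and 10307 normalized counts in the knockout-labelled libraries, against 2942 and 2936 in the WT-labelled libraries, and Spns3, of the spinster family, had 5495 and 5672, against 196 and 153. The log2 fold changes were 1.84 and 5.0 (limma adjusted p = 1.40e-06 and 1.84e-06). Emb, a chaperone of monocarboxylate transporters, fell by 0.42, and Stk39, a kinase that acts on cation-chloride cotransporters, fell by 0.45.

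The minimum mean of 100 was crossed closely by a few genes. Just above it lay Slc10a1, a bile acid transporter, with a mean of 103 normalized counts, Slc25a34 with 105 and Slc29a2 with 110, none of which was called in the fit of all 4 libraries. Slc25a34 had a log2 fold change of 0.70, which ran from 0.43 to 0.96 with 1 library left out and was called without WT-labelled replicate 1 (0.92, limma adjusted p = 0.0446). Just below it lay Slc22a21 with a mean of 98.5, Slc22a12 with 94.8 and Slc5a9 with 88.3. Slc22a21 was not called, while Slc22a12 and Slc5a9 were called higher (log2 fold change 7.55 and 1.18, limma adjusted p = 0.000136 and 0.0401). Slc22a12, a urate transporter, had 221 and 158 in the knockout-labelled libraries and 0 reads in both WT-labelled libraries.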

How the data were processed

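Polyadenylated RNA of 4 libraries was sequenced. The submitters' processing notes name StringTie 2.1.4, HISAT2 2.2.1, Trim Galore 0.4.4, DESeq2 and the build mm10; no source used here gives their settings, the annotation or the use of strand. Normalized counts were deposited by the authors as a signal that is not whole-numbered, with their mean per gene. The authors' deposited table also holds a log2 fold change of WT over knockout with its error, a Wald score and p-values with adjusted p-values. Values were whole multiples of 1 step per library for 100% of values within 0.01 reads, so reads were recovered. Members, gene lists and tests were chosen with earlier results of these data known.

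The test was limma 3.58.1 (R 4.3.3), with a variance trend and robust moderation in eBayes, on log2(normalized count + 1). Genes with 10 or more in 2 or more libraries were tested, and 18378 passed. P-values are two-sided, adjusted by Benjamini-Hochberg over all of them at 0.05. The log2 scale with a pseudocount understates changes of low genes. Folds are ratios of group means. With 2 libraries on each side, the smallest two-sided p of an exact permutation test is 0.333, so none was used. Both pairs of libraries were further apart than counting noise (chi-square per degree of freedom 6.75 in the knockout-labelled and 23.6 in the WT-labelled pair). Alternatives on recovered reads were edgeR 4.0.16 with TMM factors and DESeq2 1.42.0. On simulated counts of 18207 genes for the comparison of knockout-labelled with WT-labelled libraries, limma recovered 73.6% of 1.5-fold and 85.7% of 2-fold changes, with 3.51% of its calls false. The simulation used the same fixed dispersion for every gene in both groups and changed few genes, unlike these data. Its rates are therefore not those of these data. Coordinates and exon length came from GENCODE M21 (GRCm38, the assembly of mm10), matched by symbol.

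Named genes were the 10 largest increases and decreases, the 10 highest levels, the smallest adjusted p per substrate class and direction, and the genes nearest the minimum mean. Libraries of a group differed over 2-fold in no member. Of partner genes, the 2 with the smallest adjusted p per direction were named. Others were added after their values were seen. Intervals are 95% intervals from limma, and floors of 3 reads cover counting error only. Single-gene results of 2 members are not reported here; they remain in the counts.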

Additional observations from a re-analysis of the deposited data

How the results depend on the processing

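Most processing choices left the counts of members near those reported. edgeR with TMM factors gave 60 members higher and 19 lower, DESeq2 57 and 19, limma without robust variance 60 and 19, pseudocounts of 0.1 and 10 gave 61 and 62 higher with 19 lower each, no filter 54 and 18, and a minimum of 50 in at least 2 libraries 63 and 19. In the first 3 of these, 79, 76 and 79 of the 79 calls were shared. Median centring gave 35 higher and 58 lower members, a median of -0.13, and 2389 higher and 7210 lower genes in all, against 3662 and 2469, because it lowers every change by 0.30; 24.9% of all calls were then higher, in place of 59.7%. Of the 60 members called higher, 35 stayed so and only Slc3a2 turned to a lower call (-0.16), and Slc25a39 and Slc1a5 turned to -0.26 and -0.28. Leaving out 1 library in turn gave 27 to 64 members higher and 5 to 23 lower, and 1309 to 4137 genes higher and 630 to 2759 lower; the low ends came without a knockout-labelled library, which leaves that group with 1 library assumed to vary like the others. Of the 60 and 19 calls, 23 and 4 held in all 4 of these fits. In these fits Slc1a5 ranged from -0.01 to 0.05 and Slc29a2 from -0.19 to 0.17, neither called, and Slc25a5 from -0.27, called lower without WT-labelled replicate 1, to 0.02. A minimum mean of 50 for members gave 65 higher, 20 lower and a median of 0.20, and one of 200 gave 57 and 19. Replicate numbers pair nothing in the labels, and same-numbered libraries deviated with a correlation of 0.0172 across genes; with the replicate number as a block, 56 members were higher and 19 lower, and 3415 and 2168 genes in all, and of the genes named by rule Slc3a2 alone lost its call (adjusted p = 0.063). Depth limits little at these levels, but the 7 members with a group mean under 100 have folds that rest on few reads.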
